A study of Mus musculus with 6 samples.

Results

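The genes described here are 35 genes of glycolysis and the pentose phosphate pathway, chosen by name as the glucose and lactate transporters, the enzymes of each step with their isoforms, and the kinases that steer them. Of these, 31 were measured by a probe set that carries a single gene symbol, out of 19938 genes measured that way in all. The other 4 were not analysed here. Gapdh appears only on 25 probe sets that list other symbols beside it, and Gpi1, Eno1 and G6pdx are named by no probe set in the platform table used. Where a gene had several probe sets, the one with the highest mean over the 6 arrays was taken.

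Both populations came from C57B/6 mouse bone marrow (tibia and femur) grown for 6 days with recombinant GM-CSF at 20 ng/ml, and neither was stimulated. The dendritic population (3 arrays) was compared with the macrophage population (3 arrays), each measured on Affymetrix Mouse Gene 1.0 arrays. The sources used here do not say how the populations were separated, nor whether replicates are separate mice or cultures. The p-values therefore cover the spread of these 6 samples alone, and that spread may be technical. All values are the deposited log2 RMA values. Differences are dendritic minus macrophage means, ± SE with n = 3 arrays per population, and a gene is called at a limma Benjamini-Hochberg adjusted p under 0.05 over all genes.

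Marker genes were read beside the population labels. The marker lists were chosen with earlier results of these data known, so they describe the populations and are no independent check of the labels. Whether any marker served to separate the populations is not said in the sources used here. All 8 dendritic cell markers measured were higher in the dendritic arrays (log2 differences from 1.82 to 5.30), and all 7 macrophage markers were lower (from -5.83 to -4.00). Among the 8, Ccr7 (5.30), Flt3 (4.70) and Cd83 (4.50) differed most. Whether the populations differed in their state of activation was not tested. The macrophage markers averaged 4.65 to 4.78 in the dendritic arrays and 9.27 to 9.76 in the macrophage arrays. The arrays' own medians ran 4.79 to 4.96. Of 10 neutrophil markers 9 were not called, and 1, Mpo, was lower (-0.74).

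Glycolysis splits glucose into pyruvate, which is reduced to lactate or passed to the mitochondria. The pentose phosphate pathway branches off after the first phosphorylation and yields NADPH in its oxidative arm and ribose phosphate for nucleotides in its non-oxidative arm. In dendritic cells and macrophages glycolysis is known to increase on activation by microbial signals, and NADPH feeds the oxidative burst and lipid synthesis of phagocytes.

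Most of the measured members were lower in the dendritic population, and a few were higher. Of the 31 measured genes, 21 were lower, where 11.6% of all genes were, and 4 were higher, where 9.98% of all genes were. The 4 higher genes were the enolases Eno3 and Eno2, the phosphofructokinase activator Pfkfb3 and the lactonase Pgls. The 6 not called were Slc2a3, Slc2a6, Hk1, Pfkp, Fbp1 and Slc16a1. The median difference of the members was -0.999, beside 0.03 over all genes. Changes of 2-fold or more were called for 15 lower members (5.82% of all genes) and 3 higher ones (4.47% of all genes). The dendritic arrays lay wholly below the macrophage arrays for 23 members, as for 16.7% of all genes, and wholly above for 5, as for 17.3%. The members were bright genes: 27 of the 31 lay at or above the median level, and among all genes at that level 20.6% were lower and 17.1% higher. The share of members that was higher lay between the 9.98% of all genes and this 17.1%, and does not set the members apart. In bulk RNA, fewer cells of a type and less RNA per cell cannot be told apart.

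**Figure D1:**
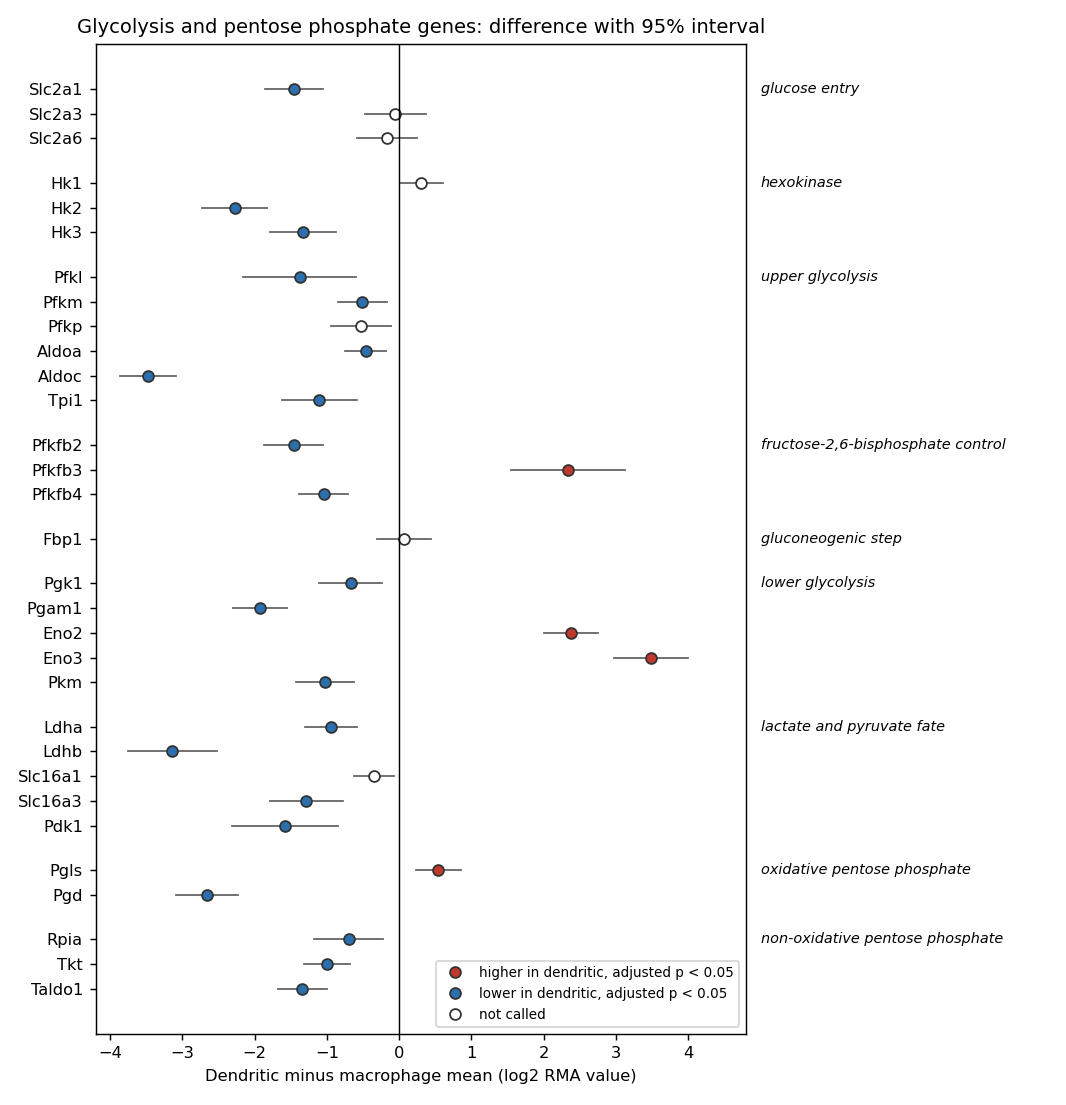
Dendritic minus macrophage difference in log2 RMA value for the 31 measured genes, grouped by role; points are the fitted differences, lines their 95% intervals, and the colour gives the call. The points for Eno3, Eno2 and Pfkfb3 lie beyond 2 on the right, while Aldoc, Ldhb, Pgd and Hk2 lie beyond -2 on the left.

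The stretches around the transcription start are shown for the 3 highest and the 3 lowest members by difference, because members that moved together invite a look at their promoters. Each is RefSeq's window in GRCm38.p6 of 250 bases before the start and 50 bases after it (the first window listed for the gene), printed 5′ to 3′ on the gene's strand. Capitals mark ACGTG or GCGTG on either strand, which is the core that hypoxia-inducible factors are known to bind, and ACGTG also occurs inside the E-box CACGTG.
Eno3, chr11:70656926-70657225, plus strand: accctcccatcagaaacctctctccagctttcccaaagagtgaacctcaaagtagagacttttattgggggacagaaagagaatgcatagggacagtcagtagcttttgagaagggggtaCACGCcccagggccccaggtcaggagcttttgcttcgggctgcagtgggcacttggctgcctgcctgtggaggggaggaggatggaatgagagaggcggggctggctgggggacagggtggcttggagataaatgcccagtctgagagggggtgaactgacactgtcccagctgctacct
Eno2, chr6:124769624-124769923, minus strand: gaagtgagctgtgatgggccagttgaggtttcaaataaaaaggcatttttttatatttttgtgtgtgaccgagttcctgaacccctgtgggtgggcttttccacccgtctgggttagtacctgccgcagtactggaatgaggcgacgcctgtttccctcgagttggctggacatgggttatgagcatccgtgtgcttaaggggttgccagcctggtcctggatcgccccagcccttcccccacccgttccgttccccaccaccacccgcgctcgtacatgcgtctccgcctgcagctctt
Pfkfb3, chr2:11553880-11554179, minus strand: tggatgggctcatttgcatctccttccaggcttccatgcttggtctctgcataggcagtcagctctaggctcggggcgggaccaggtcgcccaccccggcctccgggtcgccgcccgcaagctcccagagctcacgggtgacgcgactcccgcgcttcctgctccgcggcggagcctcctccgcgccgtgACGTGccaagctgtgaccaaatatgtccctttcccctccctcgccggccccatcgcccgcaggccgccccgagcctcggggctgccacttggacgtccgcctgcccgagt
Aldoc, chr11:78322823-78323122, plus strand: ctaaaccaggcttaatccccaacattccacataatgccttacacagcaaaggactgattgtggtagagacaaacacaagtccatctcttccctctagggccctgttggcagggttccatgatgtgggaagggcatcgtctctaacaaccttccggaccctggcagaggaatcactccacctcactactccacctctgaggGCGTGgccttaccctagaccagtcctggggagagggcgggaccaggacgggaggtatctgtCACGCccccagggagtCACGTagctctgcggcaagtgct
Ldhb, chr6:142507908-142508207, minus strand: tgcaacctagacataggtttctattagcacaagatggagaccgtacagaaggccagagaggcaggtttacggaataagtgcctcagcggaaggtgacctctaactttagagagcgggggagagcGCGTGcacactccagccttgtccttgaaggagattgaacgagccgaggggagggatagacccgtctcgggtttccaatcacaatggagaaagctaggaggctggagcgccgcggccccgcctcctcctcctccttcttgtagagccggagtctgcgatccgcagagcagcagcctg
Pgd, chr4:149166656-149166955, minus strand: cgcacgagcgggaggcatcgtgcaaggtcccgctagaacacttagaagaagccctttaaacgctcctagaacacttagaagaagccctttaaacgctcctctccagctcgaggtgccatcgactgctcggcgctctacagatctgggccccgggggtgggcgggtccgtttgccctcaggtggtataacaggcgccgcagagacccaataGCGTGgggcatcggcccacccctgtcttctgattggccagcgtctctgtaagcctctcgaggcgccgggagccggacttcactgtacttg
The Aldoc window holds 3 such matches, and those of Eno3, Pfkfb3, Ldhb and Pgd hold 1 each. None is found in the Eno2 window. The second windows, not printed here, hold 4 matches for Pfkfb3, 1 for Aldoc and 0 for Pgd. The counts for these genes therefore depend on the start site taken. Over all 44 windows of the 30 members that had one, 79.5% held a match, beside 43.8% of all 32851 windows. The members' windows were also richer in G and C, with a median of 60.7% beside 52.7% in all windows. In first windows a match was held by 18 of the 21 lower members and 3 of the 4 higher members, beside 43.8% of all genes. A match is a description of the letters and not a measured binding site.

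Of 3 glucose transporter transcripts, Slc2a1 was lower and Slc2a3 and Slc2a6 were not called. Slc2a1 (GLUT1, the widely used high-affinity glucose transporter) read 7.80, 7.29 and 7.77 in the dendritic arrays, against 9.30, 8.85 and 9.07 in the macrophage arrays. The populations did not overlap, and the difference was -1.45 ± 0.18, or 2.74-fold lower in the dendritic population (limma adjusted p = 0.000384). Slc2a3 (GLUT3), at 4.37 to 4.98 over the 6 arrays and under the median level of all genes (5.14), differed by -0.05 (95% interval -0.47 to 0.37). The hexose transporter Slc2a6 (GLUT6) differed by -0.17 (95% interval -0.59 to 0.24). Neither was called, and both overlapped between populations.

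Hexokinases trap glucose in the cell as glucose 6-phosphate. Hk2, the inducible isoform bound to mitochondria, read 5.24, 4.81 and 4.90 in the dendritic arrays, against 7.63, 6.91 and 7.22 in the macrophage arrays. All dendritic values lay more than 1 log2 unit below all macrophage values, and Hk2 was lower (-2.27 ± 0.20, limma adjusted p = 5.02e-05). Its dendritic values lay near the arrays' medians and are not shown to be above background, so no fold is given. Hk3, the isoform of myeloid cells, read 5.06, 5.64 and 5.12 in the dendritic arrays, against 6.66, 6.30 and 6.86 in the macrophage arrays. It was lower without overlap (-1.33 ± 0.20, limma adjusted p = 0.00129). The dendritic values of Hk3 also lay near the arrays' medians and are not shown to be above background, so no fold is given.

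The constitutive hexokinase Hk1 depends on which probe set is read. The brighter one (10414661) read 10.21, 10.05 and 9.93 in the dendritic arrays, against 9.82, 9.80 and 9.65 in the macrophage arrays, and was not called (0.31 ± 0.13, limma adjusted p = 0.147). Its only listed accession, J05277, also stands on all 16 probe sets that name Hk1 together with the ribosomal protein gene Rpl17. Those 16 differed by 0.08 to 0.28, all in the same direction as this probe set. The dimmer one (10369541), which lists curated RefSeq transcripts, read 6.50, 6.29 and 6.61 in the dendritic arrays, against 7.07, 6.96 and 7.002 in the macrophage arrays. With it in place, a choice made after these values were seen, Hk1 was lower in the dendritic population (-0.54, limma adjusted p = 0.0150). The direction of Hk1 therefore changes with the probe set, and the lower members then number 22.

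The phosphofructokinases carry out the committed step of glycolysis. Pfkl, the liver-type subunit, read 6.79, 5.62 and 5.58 in the dendritic arrays, against 7.92, 6.97 and 7.24 in the macrophage arrays. The populations did not overlap, although dendritic replicate 1 came close to the lowest macrophage array, and Pfkl was lower by -1.38 ± 0.35 (limma adjusted p = 0.0194). This call was lost without dendritic replicate 2 or 3 and when all probe sets were tested (adjusted p up to 0.0834 over the alternatives). Pfkm, the muscle-type subunit, read 5.21, 5.13 and 5.19 in the dendritic arrays, against 5.40, 5.84 and 5.83 in the macrophage arrays (-0.51 ± 0.15, limma adjusted p = 0.0381). Its call was lost in 8 of 16 alternatives (adjusted p up to 0.165). The dendritic values of Pfkm lay near the arrays' medians and are not shown to be above background. The platelet-type subunit Pfkp, at 7.40, 7.42 and 7.84 in the dendritic arrays and 7.90, 8.40 and 7.95 in the macrophage arrays, was not called (-0.53, 95% interval -0.94 to -0.11, limma adjusted p = 0.0766). It was called without dendritic replicate 3 and with array weights (lowest adjusted p, 0.0214).

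The PFKFB enzymes make and break fructose 2,6-bisphosphate, the strongest activator of phosphofructokinase, and their isoforms moved in opposite directions. Pfkfb3, the isoform with the highest ratio of kinase to phosphatase activity, read 10.22, 9.47 and 9.95 in the dendritic arrays, against 8.36, 6.87 and 7.41 in the macrophage arrays. It was 5.05-fold higher without overlap (2.34 ± 0.35, limma adjusted p = 0.00115), and the macrophage arrays were the more spread (SD 0.75, against 0.38 in the dendritic arrays). Gm10851, a gene model that overlaps Pfkfb3 in the RefSeq table, was higher as well (1.599 ± 0.22, limma adjusted p = 0.000719). No other measured gene that overlaps a member was called. Spsb2 (at Tpi1, -0.43) and Pfn1 (at Eno3, 0.21) differed in their member's direction. Senp1 (at Pfkm, 0.44) and Csnk1d (at Slc16a3, 0.33) differed in the opposite direction. For Unc5a (at Hk3), Pitrm1 (at Pfkp) and Yod1 (at Pfkfb2) the populations overlapped. Pfkfb2 read 4.57, 4.40 and 4.76 in the dendritic arrays, against 6.33, 6.07 and 5.70 in the macrophage arrays (-1.46 ± 0.18, limma adjusted p = 0.000384). Pfkfb4 read 4.63, 4.70 and 4.29 in the dendritic arrays, against 5.46, 5.70 and 5.58 in the macrophage arrays (-1.04 ± 0.15, limma adjusted p = 0.000909). Neither overlapped between populations. The dendritic values of both lay below the arrays' medians and are not shown to be above background. Fructose bisphosphatase Fbp1, which runs the opposite, gluconeogenic step, stayed near the bottom of the scale at 2.83 to 3.39 on all 6 arrays and was not called.

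Aldolases cleave fructose 1,6-bisphosphate, and the minor isoform carried the larger difference. Aldoc, known best from brain, read 6.46, 5.94 and 6.37 in the dendritic arrays, against 9.55, 9.77 and 9.87 in the macrophage arrays. It was 11.1-fold lower, the largest fall of any member (-3.47 ± 0.17, limma adjusted p = 1.53e-06). Aldoa, the ubiquitous isoform, read 11.19, 11.05 and 11.30 in the dendritic arrays, against 11.57, 11.64 and 11.71 in the macrophage arrays. It differed by only -0.46 ± 0.12 (limma adjusted p = 0.0275), a call lost in 4 of 16 alternatives (adjusted p up to 0.103). Triose phosphate isomerase Tpi1 read 9.48, 8.54 and 9.06 in the dendritic arrays, against 10.36, 9.94 and 10.07 in the macrophage arrays (-1.10 ± 0.23, limma adjusted p = 0.00768).

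In lower glycolysis the kinases and the mutase were lower while the measured enolases were much higher. Enolase makes phosphoenolpyruvate, and the ubiquitous isoform Eno1 was not analysed here. Eno3, the muscle isoform, read 9.20, 9.94 and 9.98 in the dendritic arrays, against 5.96, 6.30 and 6.43 in the macrophage arrays. It was 11.1-fold higher (3.48 ± 0.22, limma adjusted p = 8.19e-06), and the populations lay far apart without overlap. Pfn1, which overlaps Eno3 in the RefSeq table, was not called (0.21, adjusted p = 0.331). Eno2, the neuronal isoform, read 6.71, 6.51 and 6.27 in the dendritic arrays, against 3.88, 4.29 and 4.20 in the macrophage arrays. It was higher (2.37 ± 0.16, limma adjusted p = 1.23e-05). Its macrophage values lay below the arrays' medians and are not shown to be above background, so no fold is given. Eno3 had the largest positive difference of the members, and Eno2 and Pfkfb3 (2.34, described above) followed without a stable order between them. Without macrophage replicate 1, for example, Eno2 differed by 2.25 and Pfkfb3 by 2.74.

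Around the enolases, phosphoglycerate mutase Pgam1 read 8.38, 7.76 and 8.04 in the dendritic arrays, against 9.91, 9.97 and 10.07 in the macrophage arrays. It was 3.80-fold lower (-1.93 ± 0.17, limma adjusted p = 4.53e-05). Of its 3 probe sets 2 hold identical values, and the other differed by -2.13. Phosphoglycerate kinase Pgk1, the first ATP-yielding step, read 10.82, 10.18 and 10.32 in the dendritic arrays, against 11.36, 10.97 and 10.99 in the macrophage arrays. Its difference of -0.67 ± 0.19 (limma adjusted p = 0.0358) lost its call in 6 of 16 alternatives (adjusted p up to 0.129). Pyruvate kinase Pkm read 9.47, 8.90 and 9.14 in the dendritic arrays, against 10.40, 9.98 and 10.19 in the macrophage arrays (-1.03 ± 0.18, limma adjusted p = 0.00280), and its second probe set differed by -0.88. These values do not separate the M1 and M2 splice forms of Pkm.

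**Figure D2:**
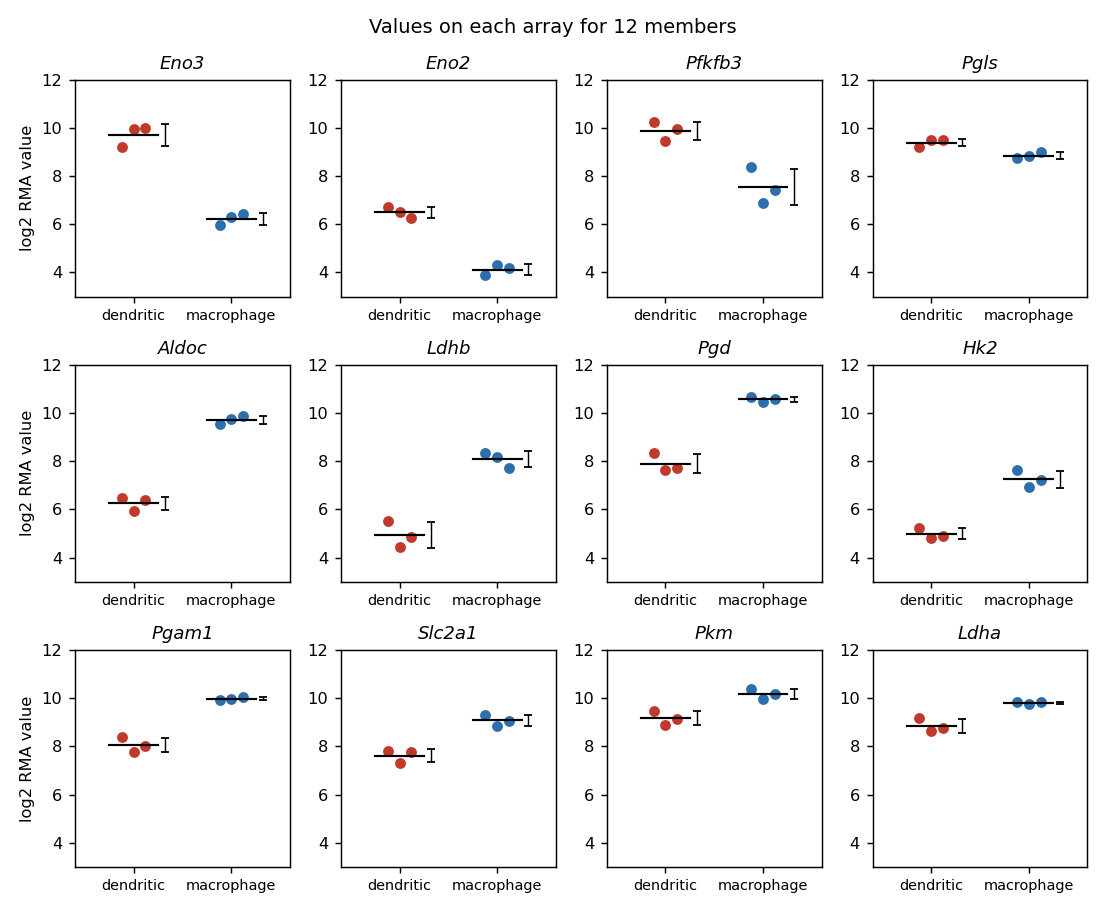
The log2 RMA value on each array for 12 members, with dendritic arrays on the left and macrophage arrays on the right of each panel; the horizontal line is the mean and the bar beside it the SD of 3 arrays. The dendritic arrays lie above the macrophage arrays for Eno3, Eno2, Pfkfb3 and Pgls and below them in the other 8 panels.

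Of 5 genes that decide the fate of pyruvate and lactate, 4 were lower and Slc16a1 was not called. Ldhb, the heart-type lactate dehydrogenase subunit, read 5.52, 4.44 and 4.86 in the dendritic arrays, against 8.35, 8.18 and 7.71 in the macrophage arrays. It was lower (-3.14 ± 0.27, limma adjusted p = 4.69e-05), and its second probe set differed by -3.31. Its dendritic values lay near the level of the macrophage markers in the same arrays, so no fold is given. Ldha, the muscle-type subunit, read 9.19, 8.64 and 8.74 in the dendritic arrays, against 9.82, 9.76 and 9.84 in the macrophage arrays (-0.94 ± 0.16, limma adjusted p = 0.00247). The lactate exporter Slc16a3 (MCT4) read 7.98, 7.33 and 7.60 in the dendritic arrays, against 9.15, 8.498 and 9.12 in the macrophage arrays (-1.28 ± 0.22, limma adjusted p = 0.00278). Slc16a1 (MCT1) was dim, at 4.09 to 4.58 over the 6 arrays, and was not called (-0.35, 95% interval -0.62 to -0.07). Pdk1, a kinase that inhibits pyruvate dehydrogenase, read 6.86, 5.41 and 6.03 in the dendritic arrays, against 7.999, 7.41 and 7.62 in the macrophage arrays (-1.58 ± 0.33, limma adjusted p = 0.00719). Among the members' dendritic values those of Pdk1 had the widest spread (SD 0.73).

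Of 5 measured genes of the pentose phosphate pathway, 4 were lower and Pgls was higher. In the oxidative arm, Pgd, the second of its NADPH-yielding dehydrogenases, read 8.35, 7.64 and 7.73 in the dendritic arrays, against 10.65, 10.45 and 10.59 in the macrophage arrays. It was 6.31-fold lower (-2.66 ± 0.19, limma adjusted p = 1.56e-05). Pgls, the lactonase that acts just before Pgd, read 9.22, 9.48 and 9.48 in the dendritic arrays, against 8.74, 8.82 and 8.99 in the macrophage arrays. It was higher (0.54 ± 0.14, limma adjusted p = 0.0194), a call lost without dendritic replicate 2 or 3 or macrophage replicate 1 or 2 (adjusted p up to 0.0799). G6pdx, which opens this arm, was not analysed here.

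All 3 non-oxidative members were lower. Taldo1 (transaldolase) read 8.09, 8.02 and 7.69 in the dendritic arrays, against 9.11, 9.31 and 9.41 in the macrophage arrays (-1.34 ± 0.15, limma adjusted p = 0.000226). Tkt (transketolase) read 8.47, 8.78 and 8.73 in the dendritic arrays, against 9.49, 9.68 and 9.80 in the macrophage arrays (-0.999 ± 0.14, limma adjusted p = 0.000920). The ribose 5-phosphate isomerase Rpia was the least secure, at 5.60, 5.27 and 4.97 in the dendritic arrays and 6.35, 5.84 and 5.73 in the macrophage arrays (-0.70 ± 0.21, limma adjusted p = 0.0442). Its call was lost in 6 of 16 alternatives (adjusted p up to 0.154).

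Isoforms of a step were set against each other within each array, which does not depend on how arrays are centred. Of 16 isoform pairs in 8 steps, 11 did not overlap between populations. Those 11 reached a 2-sided exact permutation p of 0.1, the smallest that 3 arrays against 3 allow (0.145 after adjustment over the pairs). Among all single genes, 17.3% lay wholly above and 16.7% wholly below in the dendritic arrays, and no such share was computed for pairs. The pairs share genes, many of them called above, so these are descriptions. The within-array difference of Aldoa minus Aldoc was 3.01 ± 0.12 (SE) larger in the dendritic population, and that of Ldha minus Ldhb 2.19 ± 0.26 larger. For Pfkfb3 minus Pfkfb4 the gap was 3.38 ± 0.58 larger, and for Pfkfb2 minus Pfkfb3 it was -3.80 ± 0.41. Eno2 minus Eno3 was -1.11 ± 0.38, where the dim macrophage values of Eno2 limit how large its difference can read. The same holds for the dim dendritic values of Ldhb, Hk2, Hk3, Pfkm, Pfkfb2 and Pfkfb4. Slc16a1 minus Slc16a3 was 0.94 ± 0.28. The values of Slc16a1 lay below the arrays' medians in both populations and are not shown to be above background. Slc2a1 minus Slc2a6 was -1.28 ± 0.13. Hk2 minus Hk3 was -0.94 ± 0.34. Hk1 minus Hk2 was 2.58 with the brighter Hk1 probe set and 1.73 with the dimmer one. With the dimmer one, Hk1 minus Hk3 was 0.79 ± 0.31 and overlapped between populations (exact permutation p = 0.2), against 1.64 ± 0.30 with the brighter one. The phosphofructokinase subunits showed no such separation: Pfkm minus Pfkp was 0.02 ± 0.19 (exact permutation p = 1.0), and both pairs with Pfkl had an exact permutation p of 0.3.

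**Figure D3:**
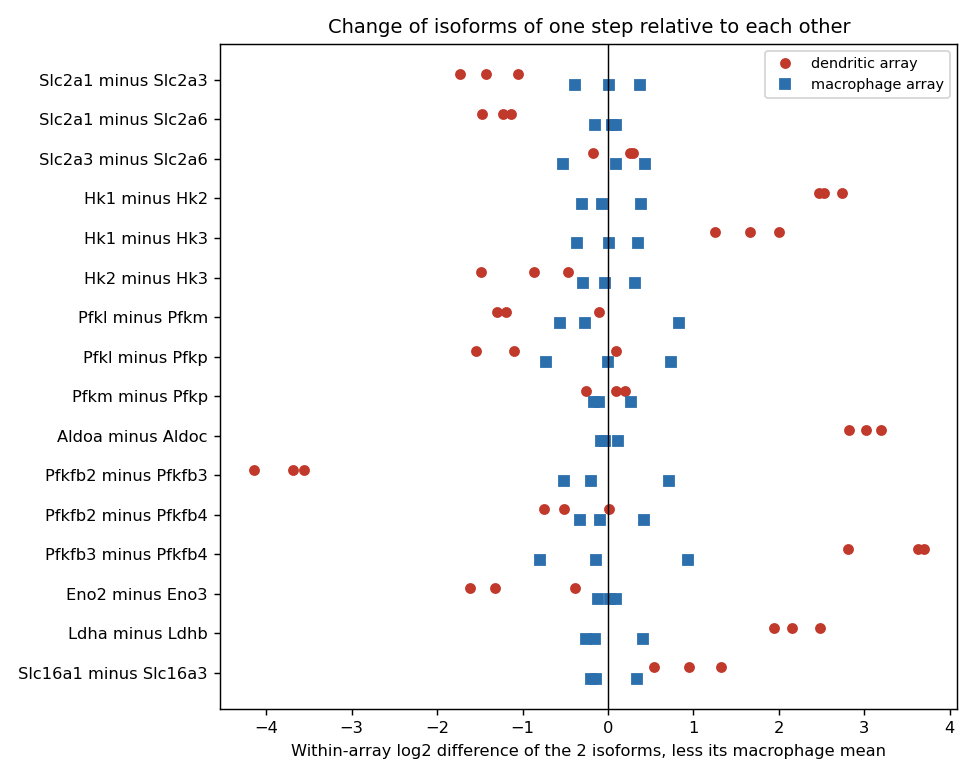
Within-array log2 difference of each of 16 isoform pairs, less its mean over the macrophage arrays, with 1 point per array (dendritic red circles, macrophage blue squares). The dendritic points of Aldoa minus Aldoc, Pfkfb2 minus Pfkfb3, Pfkfb3 minus Pfkfb4, Hk1 minus Hk2 and Ldha minus Ldhb stand well apart from the macrophage points, while those of Pfkm minus Pfkp lie among them.

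The genes next to these in the pathway were read from a second list of 48, of which 44 were measured. In the dendritic population 15 were lower and 3 higher, with a median difference of -0.35, beside 11.6% and 9.98% of all genes. Without macrophage replicate 2 the lower genes numbered 9. The largest fall was that of Txnip, an inhibitor of glucose uptake, at 9.07, 7.81 and 7.63 in the dendritic arrays and 10.82, 10.26 and 10.35 in the macrophage arrays (-2.31 ± 0.34, limma adjusted p = 0.00119). The pyruvate carrier Slc16a7 (MCT2) differed by -2.05 ± 0.26, Slc16a6 by -1.29 ± 0.12 and the pyruvate dehydrogenase phosphatase Pdp1 by -1.17 ± 0.15. These 4 had the largest falls of the list and did not overlap between populations. The dendritic values of Slc16a7 (2.93 to 3.53) and Slc16a6 (4.24 to 4.40) lay below the arrays' medians and are not shown to be above background.

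The 3 higher genes of that list were Prps1, Gpd2 and Pgam2. Prps1, which turns ribose 5-phosphate into the precursor of nucleotides, read 7.65, 7.13 and 7.62 in the dendritic arrays, against 5.48, 5.10 and 5.23 in the macrophage arrays (2.19 ± 0.18, limma adjusted p = 2.93e-05). Gpd2, the mitochondrial enzyme of the glycerol phosphate shuttle, read 9.49, 8.80 and 9.25 in the dendritic arrays, against 7.49, 7.75 and 7.79 in the macrophage arrays (1.501 ± 0.19, limma adjusted p = 0.000411). Pgam2, the muscle isoform of the mutase, was higher by 0.63 ± 0.12 (limma adjusted p = 0.00569), while Pgam1 was lower. Prps2, a paralogue of Prps1 named here after its values were seen, was lower, at -0.58 ± 0.17 (limma adjusted p = 0.0363).

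The members' deviations within the populations are described by replicate number, and no test of them was run. Replicate 1 held the highest value in both populations for 14 of the 31 members, where this was so for 17.3% of all genes. Replicate 2 did so for 1 member and replicate 3 for 4. The 14 included Pfkl, Pdk1, Hk2, Slc2a1, Pgk1, Tpi1, Pfkfb3 and Ldhb. In dendritic replicate 1, 22 of 31 members lay above their population's mean, with a median deviation of 0.18, beside -0.05 over all genes. In macrophage replicate 1 it was 18 of 31, with a median deviation of 0.07, beside -0.04 over all genes. Macrophage replicate 3 was close to this count, with 17 of 31 and a median deviation of 0.002, beside 0.03 over all genes.

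The average of the neutrophil markers was also highest in replicate 1 of each population. Among the dendritic arrays Elane and Mpo were highest in replicate 3, and among the macrophage arrays both were highest in replicate 1. The 10 markers averaged 7.14 in dendritic replicate 1, against 6.38 and 6.03 in replicates 2 and 3, and 7.34 in macrophage replicate 1, against 6.15 and 6.33 in macrophage replicates 2 and 3. Their part in the members' deviation was not tested. With replicate 1 left out of each population (chosen after seeing the data), 21 members were lower and 4 higher.

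**Figure D4:**
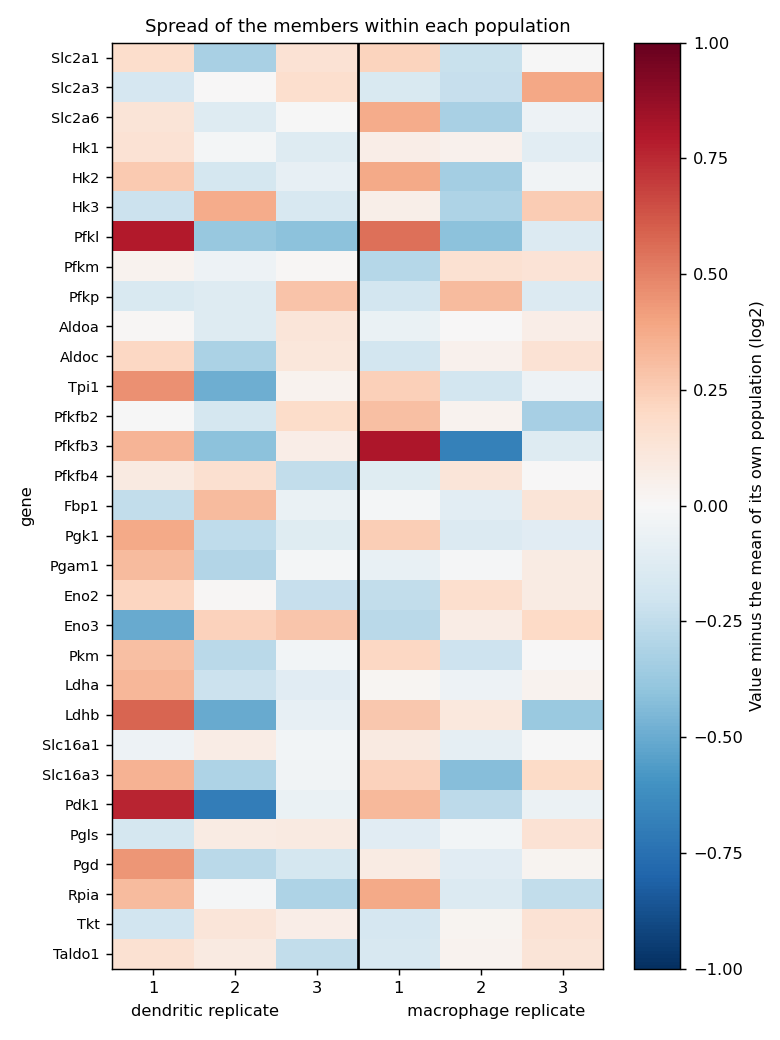
Value of each of the 31 members on each array minus the mean of its own population, in log2 units (red above, blue below); the black line divides the dendritic arrays on the left from the macrophage arrays on the right. Replicate 1 is red in both populations for genes such as Pfkl, Pdk1, Tpi1 and Pfkfb3, and blue in both for Eno3.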

How the data were processed

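The authors deposited log2 values of 35556 probe sets for each of 6 arrays. The submitters' processing notes name RMA and R 3.0.2. This method corrects background, normalizes arrays by quantiles and summarizes probes, and it compresses differences of dim probe sets. No source used here names a genome build. Gene symbols came from the platform annotation: 21789 held 1 symbol, 1621 held several and 12146 were not in it. Genes with several probe sets (999) were read from the brightest.

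All 19938 genes were fitted with limma 3.58.1 in R 4.3.3 (lmFit and eBayes, 2-sided, population as the only term). The number of arrays limits the precision. Data were simulated for this dendritic minus macrophage comparison, with normal noise drawn independently for each array. The noise had the spread that limma's eBayes step estimated for each of the 19938 genes. No deviation shared by arrays of the same number was simulated, so its effect on the calls is not shown. The test recovered 9 of 67 genes changed by 0.5, 60 of 67 changed by 1 and 66 of 66 changed by 2 (log2). There were 9 false calls. The simulation changed far fewer genes than the 4312 called in the data. Its adjusted threshold was therefore stricter, and its recovery of small changes may read too low for these data. Tables and figures used Python 3.11.15, pandas 2.3.3, scipy 1.17.1 and matplotlib 3.10.9.

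The replicate numbers come from the titles, and the labels do not say what they mark. Deviations of arrays sharing a number correlated at 0.385, 0.147 and 0.272 (numbers 1, 2 and 3). Of arrays with different numbers, dendritic 2 with macrophage 3 reached 0.155 and dendritic 3 with macrophage 2 reached 0.128, and the other 4 pairs were negative, so number 2 is not set apart from 3. Same-numbered arrays were treated as pairs in the block alternative. Alternatives were a replicate block, each array left out, other normalizations, filters, probe set choices and variance models. The members and lists were chosen with earlier results of these data known. Every measured member is named, and of the second list the 4 largest called differences in each direction.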

Additional observations from a re-analysis of the deposited data

How the results depend on the processing

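Over 16 alternatives, 19 of the 25 called members kept call and direction in each one run, and none of the 25 reversed. The 6 that lost the call in at least 1 were Pfkl, Pfkm, Aldoa, Pgk1, Pgls and Rpia. The lower members numbered 16 to 20 and the higher 3 or 4 when 1 array was left out, 21 and 4 under a replicate block, which changed no member's call, 20 and 5 after quantile normalization was applied again, and 17 and 4 when all probe sets were tested. The median difference of the members lay between -1.09 and -0.86 over the alternatives.

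The second pathway list had 9 lower genes without macrophage replicate 2 and 9 to 18 over the 6 settings without 1 array. Signs turned only for members not called. Slc2a3 ran -0.17 to 0.14 over the settings without 1 array, and was 0.03 without dendritic replicate 1, 0.14 without macrophage replicate 3, 0.0031 after centring on the 75th percentile and 0.13 under array weights. Over the settings without 1 array, Slc2a6 ran -0.33 to 0.012 and turned without macrophage replicate 1, and Fbp1 ran -0.094 to 0.19 and turned without dendritic replicate 2. Hk1 was -0.12 as the mean of its probe sets and -0.54 on the probe set with RefSeq transcripts, and was called higher after repeated quantile normalization (adjusted p = 0.0360). Members near the level of the dimmest genes, such as Fbp1, carry little information on this scale.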
